A study of Mus musculus with 12 samples.

Results

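The genes described here encode the cytosolic factors that start and extend protein synthesis in haematopoietic stem cells (HSCs). They were taken by name: symbols that begin with Eif1 to Eif6, Eef1 or Eef2, without the eIF2α kinases Eif2ak1, Eif2ak2, Eif2ak3 and Eif2ak4, together with the symbols of cytosolic ribosomal proteins. Of the 14143 genes in the table, 45 matched, of which 40 were initiation factor genes and 5 were genes of elongation factors or of enzymes that modify one. No ribosomal protein symbol matched and the ribosomal proteins were not analysed here, so the set holds translation factors and no ribosome component. Some core factors, among them Eef1a1, Eef2, Eif4a1, Eif4g1 and Eif2s3x, were not analysed here either.

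RNA was measured in stem cells of female C57BL6J mice that were sorted as lineage-negative, Sca-1+, CD117+, CD48- and CD135- and then divided by CD150. Old My-HSCs (CD150 high, myeloid-biased, 18 months) were compared with young My-HSCs (CD150 high, 8 to 10 weeks), and old Ly-HSCs (CD150 low, lymphoid-biased, 18 months) with young Ly-HSCs (CD150 low, 8 to 10 weeks). Each of the 4 groups had 3 libraries, said to come from separate groups of mice, and the number of animals behind a library is not given. In the protocol the young mice are 8 to 12 weeks old. Old mice came from a colony of the National Institute on Aging and young mice from the Jackson Laboratory or a university, so age and colony of origin cannot be told apart.

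Translation starts when a ternary complex of eIF2, GTP and initiator methionyl-tRNA joins the small ribosomal subunit with eIF1, eIF1A, eIF3 and eIF5. The eIF4 factors bring this complex to the capped end of an mRNA, eIF1 and eIF1A keep it scanning until a start codon is met, and eIF5B joins the large subunit. eIF2 must then be recharged with GTP by eIF2B. The eEF1 and eEF2 factors carry the elongation cycle. Haematopoietic stem cells are known for a low rate of protein synthesis compared with their progeny, in which the 4E-binding proteins, inhibitors of the cap-binding factor eIF4E, take part.

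Values are FPKM as deposited, and their sum per library was 211455 to 228391. Slamf1, which encodes CD150, was at 26.4 to 35.3 FPKM in old My-HSCs against 1.78 to 8.33 FPKM in old Ly-HSCs, and at 15.0 to 34.0 FPKM in young My-HSCs against 1.39 to 4.87 FPKM in young Ly-HSCs. Over the 10 of 12 stem cell markers with values, the summed level was 524 to 580.0 FPKM in old My-HSCs, 545 to 555 in young My-HSCs, 406 to 470.0 in old Ly-HSCs and 457 to 577 in young Ly-HSCs. The old libraries numbered 1 stood apart in markers of other cells. The 4 of 14 granulocyte markers with values (Prtn3, Itgam, Mmp9 and Cebpe) summed to 109 to 309 FPKM in old My-HSCs and 14.2 to 42.4 in young My-HSCs, and to 78.4 to 299 FPKM in old Ly-HSCs and 1.79 to 58.7 in young Ly-HSCs, highest in the old libraries numbered 1, and no young My-HSC library had a Cebpe value above 0. The cycling list, 12 of 14 with values, summed to 183 to 259.9 FPKM in old My-HSCs, 143 to 227 in young My-HSCs, 239 to 436 in old Ly-HSCs and 111 to 225 in young Ly-HSCs. The share of genes listed at 0 was 12.1% to 18.2% in old My-HSCs, 19.3% to 26.1% in young My-HSCs, 13.3% to 22.3% in old Ly-HSCs and 25.0% to 34.1% in young Ly-HSCs. The shares and the granulocyte sums moved with age. In a fit without the 4 libraries numbered 1, and in another with the share of genes at 0 as a covariate, no translation factor gene was called in any of the 7 comparisons, as was the case with all libraries and no covariate. Since none was called from the outset, these counts cannot show whether the marker sums or the shares bear on the estimates. That was not tested.

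As a group the translation factor genes were abundant. Their median mean level over the 12 libraries was 31.6 FPKM, against 12.2 FPKM over the 10900 genes that passed the filter on low values (1 FPKM or more in at least 3 libraries). The mean exceeded 100 FPKM for 9 members, which is 20.0% of them, against 1.85% of all genes tested, lay between 10 and 100 FPKM for 32, and was under 10 FPKM for 4. FPKM is a value per length, so these levels can be set beside each other. Eif4b, whose product helps the eIF4A helicase unwind mRNA leaders, was highest at 255 FPKM and ranked 13 in the table. The eIF3 subunit genes Eif3e (239 FPKM) and Eif3c (233 FPKM) and the elongation factor 1γ gene Eef1g (222 FPKM) followed at ranks 17, 19 and 25. The other 5 over 100 FPKM were Eif4a2 (185 FPKM), Eif1 (173 FPKM), Eif5 (159.7 FPKM), Eif4g2 (132 FPKM) and Eif5a (129.6 FPKM). The lowest were Eef1a2, the muscle and neuron form of elongation factor 1α, which was listed at 0 in all 12 libraries and was the 1 member not tested, and Eif5a2, a paralog of Eif5a, listed at 0 in 1 library and at most at 4.18 FPKM. The other 43 members were above 0 in every library.

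**Figure D1:**
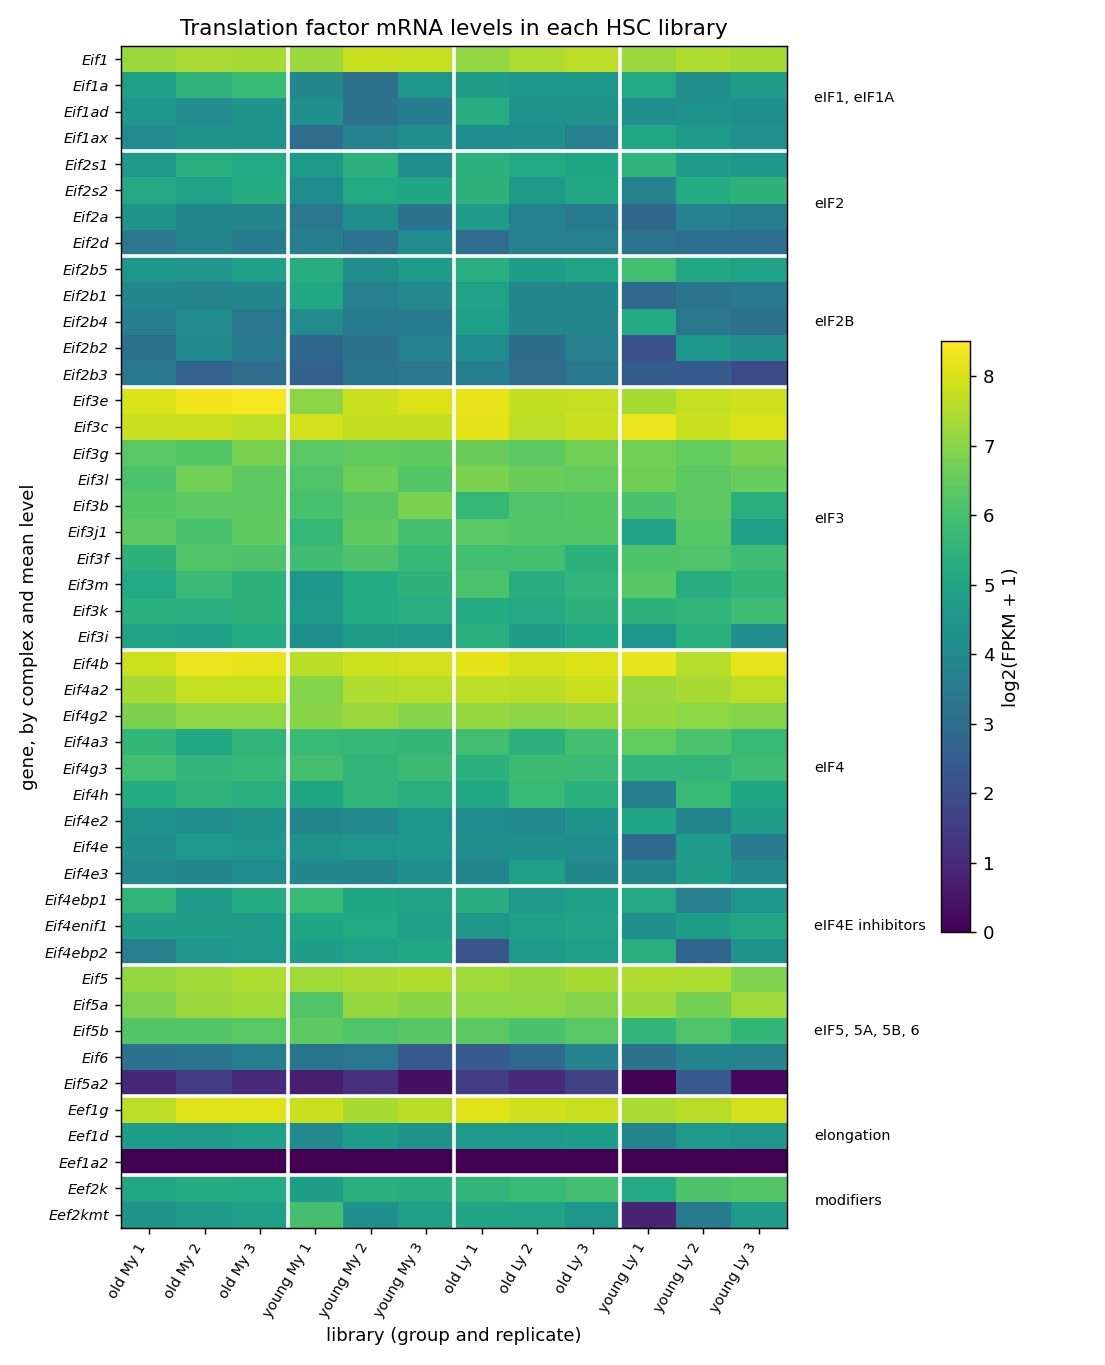
Level of each of the 45 translation factor genes, as log2(FPKM + 1) by colour, in each of the 12 libraries (columns, by group and replicate), with genes in rows grouped by complex and ordered by mean level. Rows keep nearly the same colour from left to right, Eif3e, Eif3c, Eif4b and Eef1g are the brightest rows, Eef1a2 is at 0 throughout, and Eef2kmt in young Ly-HSC library 1 and Eif4ebp2 in old Ly-HSC library 1 are single dark cells.

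Members varied less across libraries than a typical tested gene did. The median SD of a member over the 12 libraries was 0.40 on the log2(FPKM + 1) scale, against 0.61 over all genes tested. Within groups the median SD of members and of all genes was 0.20 and 0.28 in old My-HSCs, 0.35 and 0.43 in young My-HSCs, 0.27 and 0.35 in old Ly-HSCs, and 0.40 and 0.68 in young Ly-HSCs. A gene's SD depends on its level, and members are more abundant than most genes, so this is a description of the 2 sets. Eif4g2 (SD 0.12), Eif4g3 (0.18) and Eif5 (0.18) were the steadiest. Eef2kmt (1.25) and Eif4ebp2 (0.95) varied most. Young Ly-HSC library 1 held the lowest value for 12 of the 44 tested members and the highest for 9. Together the 45 members held 1.37 ± 0.111% of the FPKM sum in old My-HSCs, 1.28 ± 0.113% in young My-HSCs, 1.35 ± 0.0521% in old Ly-HSCs and 1.30 ± 0.00526% in young Ly-HSCs (SD, n = 3 each), and the libraries of old and young cells overlapped in both subsets.

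**Figure D2:**
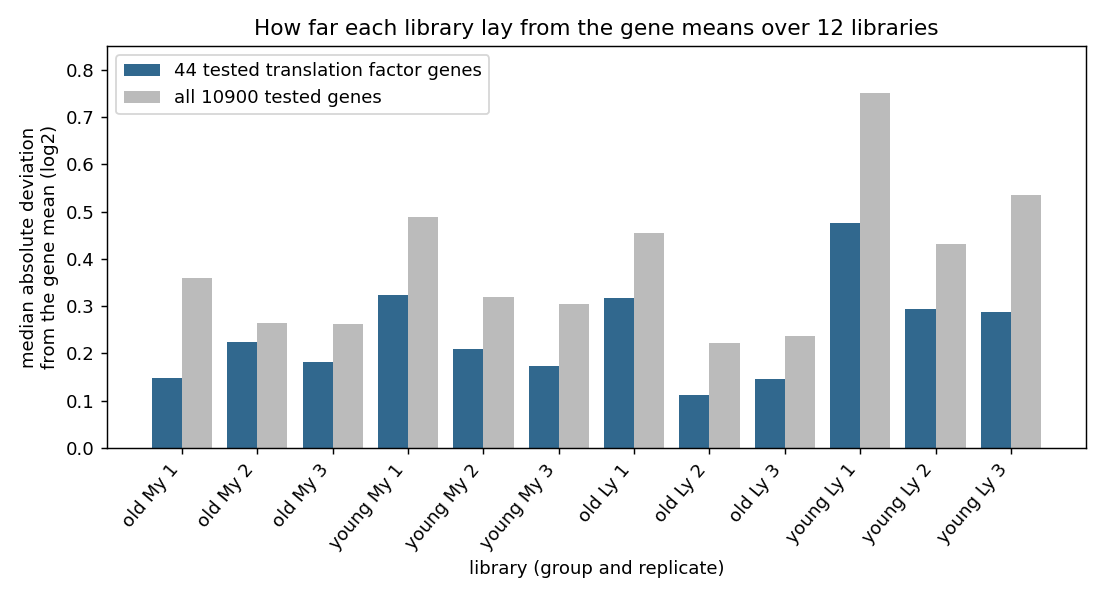
Median absolute deviation of a gene's log2(FPKM + 1) from its mean over the 12 libraries, for each library (pairs of bars), for the 44 tested translation factor genes (blue) and for all 10900 tested genes (grey). The blue bar is the lower one in each library, and both are highest in young Ly-HSC library 1, at 0.476 for the members and 0.749 for all genes.

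Promoter sequences from RefSeq (GRCm38.p6) were at hand for 35 of the 45 genes, as windows from 250 bases before to 50 bases after each annotated start. Not matched were Eef1d, Eef1g, Eif1a, Eif2b3, Eif3e, Eif3i, Eif4e3, Eif4ebp1, Eif4g2 and Eif6. Many mRNAs of the translation machinery are known to begin with a C followed by a run of pyrimidines, the terminal oligopyrimidine tract through which mTORC1 and Larp1 control them, and their genes often carry the E-box letters read by Myc. The motif definitions were chosen after the members' windows had been seen, so the shares below are descriptions. The 3 windows that follow show the longest pyrimidine runs next to a start among the tested members, and with them the 1 member with a C at the start followed by 4 or more pyrimidines, Eif3f. Each runs from 40 bases before to 20 bases after the start, 5′ to 3′ on the gene's strand, with the pyrimidine run in capitals.
Eif3f, chr7:108934375-108934434, strand +: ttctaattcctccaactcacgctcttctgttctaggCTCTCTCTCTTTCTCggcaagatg
Eif2b5, chr16:20498777-20498836, strand +: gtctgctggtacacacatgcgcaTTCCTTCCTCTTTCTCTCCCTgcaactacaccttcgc
Eif3m, chr2:105017008-105017067, strand -: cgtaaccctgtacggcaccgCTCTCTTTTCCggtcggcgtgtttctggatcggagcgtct
A gene was counted when any of its windows held the motif. A C at the annotated start followed by 4 pyrimidines was found for 1 of the 35 members (2.86%), against 3.01% of all 27025 genes with a window and 2.83% of the 8555 tested genes among them. A run of 8 or more pyrimidines with a base within 10 bases of the start was found for 8 members (22.9%), namely Eef1a2, Eif2b2, Eif2b5, Eif3f, Eif3l, Eif3m, Eif4e and Eif4enif1, against 15.8% of all genes with a window and 16.8% of the tested genes. Annotated starts can lie some bases away from the start used in these cells, which no file here measures.

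The next pair shows the other motifs searched, CACGTG (the E-box, which reads alike on both strands) and CCGGAAG (core letters of sites for ETS factors, searched on both strands as CCGGAAG or CTTCCGG), each in capitals in a window of the same size. A pyrimidine run can share bases with CTTCCGG.
Eef2k, chr7:120842791-120842850, strand +: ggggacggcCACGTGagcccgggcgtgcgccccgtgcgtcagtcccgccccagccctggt
Eif2b4, chr5:31193120-31193179, strand -: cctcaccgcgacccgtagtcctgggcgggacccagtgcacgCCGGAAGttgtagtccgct
CACGTG lay in the full windows of 7 of the 35 members (20.0%), namely Eef2k, Eif3f, Eif3k, Eif4e, Eif4h, Eif5a and Eif5a2, against 8.09% of all genes with a window and 11.9% of tested genes. CCGGAAG lay in those of 13 (37.1%), Eif1ax, Eif3c and Eif3l among them, against 9.93% of all genes with a window and 20.5% of tested genes. A match is a string of letters and not a measured binding site.

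In old against young My-HSCs, no translation factor gene passed the limma test at an adjusted p under 0.05, while 23 of the 10900 genes did (0.211%). The estimate was higher in old cells for 26 of the 44 tested members, against 55.8% of all genes. The members' median log2 fold change was 0.06 and that of all genes 0.07. At an unadjusted p under 0.05 there were 2 members, Eif1a and Eif3e, both higher in old cells, against 7.21% of all genes in either direction and 5.06% in the higher one. The 3 old and 3 young libraries did not overlap for 6 members, against 19.1% of all genes. Eif1a, Eif3i and Eif3k lay higher in all old libraries, as did 11.3% of all genes, and Eif4a3, Eif4ebp2 and Eif4enif1 lower, as did 7.8%. Fold changes here are on the log2(FPKM + 1) scale, which understates those of low genes, and an error after them is limma's standard error. In bulk libraries such as these, fewer cells of a type and less RNA per cell cannot be told apart.

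In old against young Ly-HSCs no member was called, against 38 genes overall (0.349%). 28 of 44 members had a higher estimate in old cells, against 62.4% of all genes, and the median log2 fold change was 0.10 for members and 0.18 for all genes. 5 members had an unadjusted p under 0.05, all higher in old cells (Eif3j1, Eif2b3, Eif2b1, Eef2kmt and Eif5b), against 13.3% of all genes in either direction and 10.2% in the higher one. Groups did not overlap for 6 members, against 16% of all genes. Eef1d, Eif1ad, Eif2b1 and Eif2b3 lay higher in all old libraries, as did 11.5% of all genes, and Eif1ax and Eif3k lower, as did 4.5%. For the mean age difference over both subsets no member was called, against 92 genes (0.844%), and 5 had an unadjusted p under 0.05 (Eif1a, Eif3j1, Eif3e, Eef1g and Eif1ad, all higher in old cells), against 14.7% of all genes in either direction and 11.1% in the higher one.

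Between subsets, no member was called in old My-HSCs against old Ly-HSCs, where 3 genes were (0.0275%), nor in young My-HSCs against young Ly-HSCs, where 13 were (0.119%), nor for the mean over both ages, where 45 were (0.413%). In the young cells 8 members had an unadjusted p under 0.05, against 13.8% of all genes. Of these, Eef2kmt, Eif2b1, Eif5b and Eif4ebp1 were higher in My-HSCs (9.59% of all genes) and Eif1ax, Eif3k, Eef2k and Eif1a lower (4.21%). In the old cells there were 2, Eif1a higher (2.48% of all genes) and Eef2k lower (1.55%) in My-HSCs, against 4.03% in either direction. For the mean there were 3, Eef2k, Eif4a3 and Eif2b5, all lower in My-HSCs, against 11.2% of all genes in either direction and 3.83% in the lower one. In young cells the median log2 fold change was -0.11 over the members and 0.13 over all genes, with 18 of 44 estimates higher in My-HSCs against 59.2% of all genes. In old cells the medians were -0.02 and 0.02, with 22 of 44 higher against 52%. These small medians did not keep their sign. For the old cells the members' median turned positive in 6 of the alternative fits, with values up to 0.038, reached without the 4 libraries numbered 1. For the mean over ages it was -0.04, and it turned positive under quantile normalization (0.020), without young Ly-HSC library 2 (0.031) and without the 4 libraries numbered 1 (0.029). For the young cells it was 0.030 without young Ly-HSC library 2. Libraries did not overlap for 6 members in the young cells (13.4% of all genes) and for 3 in the old cells (16.7%). The age contrasts and the subset contrasts use the same libraries, so they are not separate evidence on a gene.

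The difference between the age effects in My-HSCs and in Ly-HSCs was called for no gene of the 10900 (0%), with 616 genes at an unadjusted p under 0.05 (5.65%). Of these, 5 were members: Eif1a, Eif1ax and Eif3k with the higher age difference in My-HSCs (1.99% of all genes), and Eif2b1 and Eef2kmt with the higher one in Ly-HSCs (3.66%). Their values follow with the complexes they belong to.

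**Figure D3:**
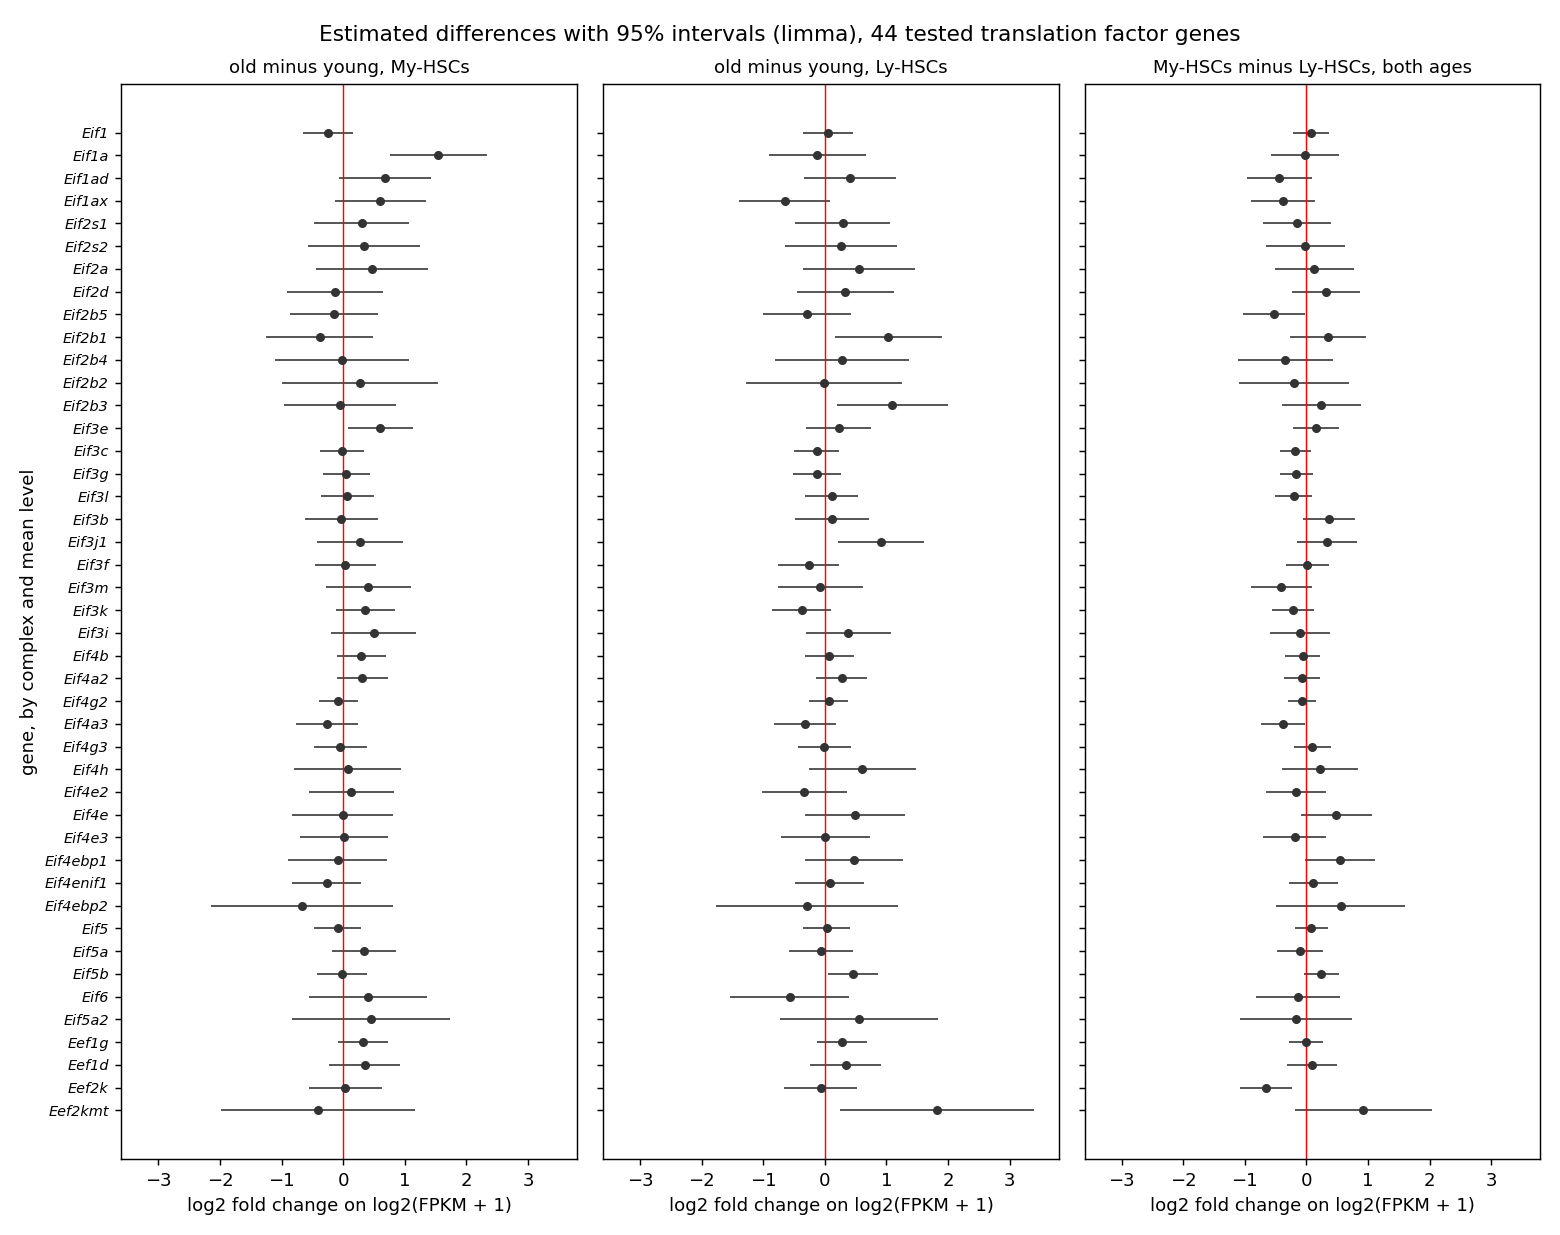
Log2 fold change on the log2(FPKM + 1) scale, as points with limma 95% intervals, for the 44 tested translation factor genes in old minus young My-HSCs (left), old minus young Ly-HSCs (middle) and My-HSCs minus Ly-HSCs over both ages (right). Most intervals hold 0, Eif1a stands out to the right in My-HSCs at 1.54, Eef2kmt has the widest interval in Ly-HSCs, and Eef2k lies left of 0 between subsets at -0.65.

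Among the scanning factors, Eif1a had the smallest adjusted p of any member in any comparison. It encodes eIF1A, which binds the decoding site of the small subunit and keeps it scanning, and it lies at chr18:46597701-46616456. Eif1a was at 28.2, 45.3 and 53.2 FPKM in old My-HSCs, against 14.4, 7.75 and 21.0 FPKM in young My-HSCs. All 3 old libraries lay above all 3 young ones, and the difference of 1.54 ± 0.37 (95% interval 0.75 to 2.33) had an adjusted p of 0.174. In the other subset it was at 25.4, 21.8 and 21.7 FPKM in old Ly-HSCs, against 35.0, 17.4 and 25.4 FPKM in young Ly-HSCs, and there the groups overlapped (-0.12 ± 0.37, adjusted p = 0.912). The age difference in My-HSCs exceeded that in Ly-HSCs by 1.66 ± 0.52 (adjusted p = 0.792), so it was not shown to differ between subsets. With one weight per group in the fit Eif1a passed in My-HSCs (adjusted p = 0.0460), when 71 of all genes were called (0.651%). Over all 24 alternatives the adjusted p ran up to 0.653, with old higher in each.

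Eif1ax, the X-linked gene of the same factor at chrX:159372178-159389928, was at 16.1, 20.1 and 19.1 FPKM in old My-HSCs, against 7.24, 12.7 and 17.3 FPKM in young My-HSCs. Those groups overlapped (0.61 ± 0.34, adjusted p = 0.809). Without young My-HSC library 1, the lowest of the 12, the difference was 0.29. Eif1ax was at 16.7, 17.7 and 12.1 FPKM in old Ly-HSCs, against 33.5, 24.1 and 18.5 FPKM in young Ly-HSCs, with all old libraries below all young ones (-0.65 ± 0.34, adjusted p = 0.433). All young My-HSC libraries also lay below all young Ly-HSC libraries (-1.01 ± 0.34, adjusted p = 0.230). Eif1a and Eif1ax encode near-identical proteins, and since the sources used here do not give how reads were shared between such copies, the level of each is uncertain. Their sum, taken after the values were seen, was 60.7 ± 14.6 FPKM in old My-HSCs and 26.8 ± 9.96 in young My-HSCs, and 38.5 ± 4.25 FPKM in old Ly-HSCs and 51.3 ± 14.9 in young Ly-HSCs (SD, n = 3 each). The sum ran from 44.3 to 72.3 FPKM in old My-HSCs, above the 20.4 to 38.3 FPKM of young My-HSCs, and from 33.8 to 42.2 FPKM in old Ly-HSCs, overlapping the 41.5 to 68.5 FPKM of young Ly-HSCs.

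Eif1ad, a relative of eIF1A with a role in the maturation of the small subunit in human cells, was at 22.3, 16.3 and 20.0 FPKM in old My-HSCs, against 18.2, 7.92 and 11.0 FPKM in young My-HSCs, groups that overlapped (0.68 ± 0.35, adjusted p = 0.758). Without young My-HSC library 2 the difference was 0.43. In Ly-HSCs the gene was at 37.9, 19.1 and 19.2 FPKM in old Ly-HSCs, against 16.8, 18.9 and 18.2 FPKM in young Ly-HSCs, with each old library above the young ones, the nearest pair less than 1 FPKM apart (0.40 ± 0.35, adjusted p = 0.639). Eif1, which guards start codon choice together with eIF1A, averaged 161 ± 12.1 FPKM in old My-HSCs and 195 ± 41.2 in young My-HSCs, and 172 ± 31.7 FPKM in old Ly-HSCs and 165 ± 14.1 in young Ly-HSCs (SD, n = 3 each). Its age difference was -0.25 ± 0.19 in My-HSCs and 0.04 ± 0.19 in Ly-HSCs, and the groups overlapped in both subsets.

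**Figure D4:**
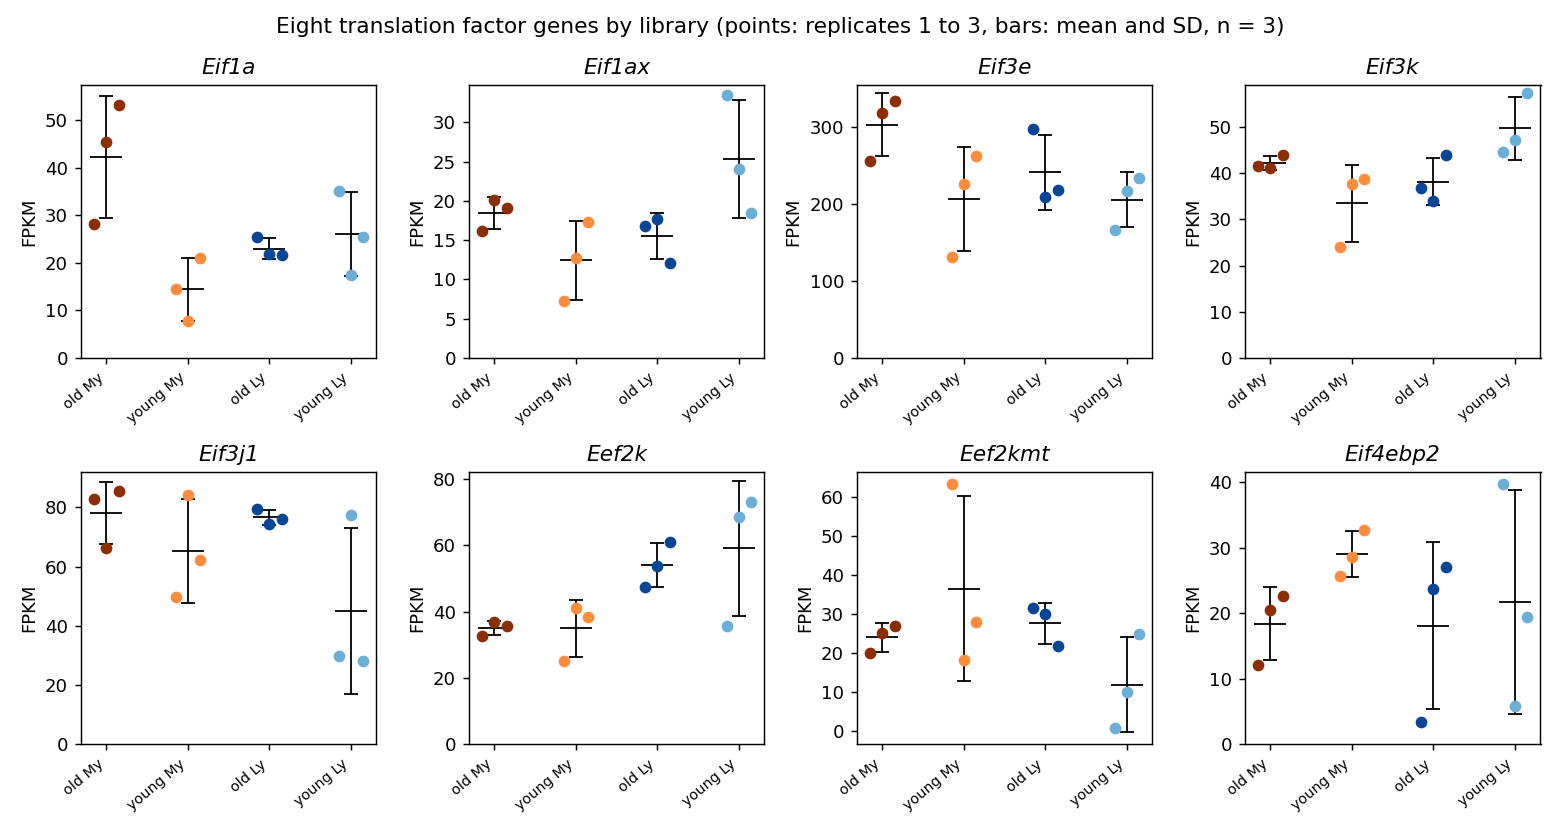
FPKM of 8 translation factor genes in each library (points, replicates 1 to 3 from left to right) with the group mean and SD (bars, n = 3), for old My-HSCs, young My-HSCs, old Ly-HSCs and young Ly-HSCs. Eif1a is highest in old My-HSCs at 28.2 to 53.2 FPKM. Eif3k and Eif1ax have age estimates of opposite sign in the subsets, though neither passed the test of that difference. The Eif1ax libraries of old and young My-HSCs overlap. Eef2k is higher in Ly-HSCs apart from young library 1, and single libraries set the spread of Eef2kmt and Eif4ebp2.

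The genes of eIF2, the factor that delivers the initiator tRNA, had no unadjusted p under 0.05 in any of the 7 comparisons. Eif2s1, which encodes the α subunit that stress kinases phosphorylate, averaged 33.0 ± 8.71 FPKM in old My-HSCs and 28.0 ± 13.6 in young My-HSCs, and 36.2 ± 5.74 FPKM in old Ly-HSCs and 30.7 ± 12.9 in young Ly-HSCs (SD, n = 3 each). Its age differences were 0.30 ± 0.36 and 0.29 ± 0.36 in My-HSCs and Ly-HSCs, with 95% intervals of -0.47 to 1.07 and -0.48 to 1.07. Eif2s2, the β subunit gene, ranged from 12.4 to 44.2 FPKM over the 12 libraries, Eif2a from 6.08 to 24.1 and Eif2d from 7.21 to 16.7. The products of the last pair are not eIF2 subunits but separate proteins that can bring tRNA to the small subunit.

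eIF2B recharges eIF2, and its 5 subunit genes were measured. Eif2b1, the α subunit gene, was at 29.1, 13.5 and 14.6 FPKM in old Ly-HSCs, against 6.58, 8.73 and 9.87 FPKM in young Ly-HSCs. All old libraries lay above all young ones, by 1.03 ± 0.40 (adjusted p = 0.304), or by 0.70 without old Ly-HSC library 1. In My-HSCs it was at 14.8, 12.9 and 13.8 FPKM in old My-HSCs, against 33.1, 12.1 and 15.0 FPKM in young My-HSCs, where young library 1 was the highest of all 12 and the groups overlapped (-0.38 ± 0.40). The age effects differed by -1.41 ± 0.57 (adjusted p = 0.864), or by -0.998 without young My-HSC library 1. Eif2b3, the γ subunit gene, was at 11.7, 7.24 and 9.94 FPKM in old Ly-HSCs, against 4.62, 4.55 and 2.75 FPKM in young Ly-HSCs, again with no overlap (1.10 ± 0.42, adjusted p = 0.294). It was at 9.87, 5.37 and 7.26 FPKM in old My-HSCs, against 5.25, 8.83 and 9.43 FPKM in young My-HSCs, where the groups overlapped (-0.05 ± 0.42). Eif2b5, which encodes the catalytic ε subunit, was the most abundant of the 5 with a mean of 30.5 FPKM. Over both ages it was lower in My-HSCs than in Ly-HSCs by estimate (-0.52 ± 0.23, adjusted p = 0.426), with 21.4, 20.5 and 26.8 FPKM in old My-HSCs against 39.9, 26.0 and 30.0 FPKM in old Ly-HSCs and 38.2, 17.5 and 24.2 FPKM in young My-HSCs against 60.0, 33.1 and 28.8 FPKM in young Ly-HSCs. The groups overlapped at each age. Eif2b4 and Eif2b2, the δ and β subunit genes, ranged from 7.81 to 36.5 FPKM and from 3.29 to 22.1 FPKM, each with an extreme in young Ly-HSC library 1. The summed level of the 5 genes was 67.6 ± 2.84 FPKM in old My-HSCs and 76.0 ± 21.3 in young My-HSCs, and 90.6 ± 29.8 FPKM in old Ly-HSCs and 85.4 ± 22.7 in young Ly-HSCs (SD, n = 3 each).

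eIF3 is the scaffold that holds the small subunit open for the other factors, and 10 of its genes were measured. Eif3e had the second smallest unadjusted p in the My-HSC age comparison. It was at 256, 318 and 333 FPKM in old My-HSCs, against 130.3, 226 and 262 FPKM in young My-HSCs, where old library 1 lay just below young library 3, so the groups overlapped (0.60 ± 0.25, adjusted p = 0.581). Without young My-HSC library 1, the lowest of the 12, the difference was 0.30. In Ly-HSCs Eif3e was at 297, 208 and 217 FPKM in old Ly-HSCs, against 165, 216 and 234 FPKM in young Ly-HSCs (0.23 ± 0.25, adjusted p = 0.726). Over both subsets the age difference was 0.41 ± 0.17 (adjusted p = 0.291). Without the same library it was 0.27.

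Eif3j1, a loosely bound subunit that also acts when ribosomes are recycled, was at 79.5, 74.4 and 76.1 FPKM in old Ly-HSCs, against 29.9, 77.5 and 28.1 FPKM in young Ly-HSCs. The old libraries lay close together, while young library 2 was inside their range and young libraries 1 and 3 were far below it, for a difference of 0.91 ± 0.32 (adjusted p = 0.254). Without young Ly-HSC library 2 the difference was 1.37 ± 0.23 and passed (adjusted p = 0.0153, range 0.0153 to 0.863 over 24 alternatives), when 223 of all genes were called (2.05%). The mean age difference passed in the same way (0.82 ± 0.15, adjusted p = 0.0241, range 0.0241 to 0.932 over 23 alternatives), with 197 genes called (1.81%). In My-HSCs the gene was at 82.7, 66.2 and 85.4 FPKM in old My-HSCs, against 49.6, 84.0 and 62.3 FPKM in young My-HSCs, and the groups overlapped (0.28 ± 0.32). Eif3j1 has a near-identical copy, Eif3j2, so its level is uncertain where reads were shared.

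Eif3k, a small accessory subunit, had opposite age differences in the subsets. It was at 41.5, 41.1 and 43.9 FPKM in old My-HSCs, against 23.9, 37.7 and 38.8 FPKM in young My-HSCs, with the old libraries above the young ones (0.36 ± 0.22, adjusted p = 0.854). It was at 36.8, 33.9 and 43.9 FPKM in old Ly-HSCs, against 44.6, 47.2 and 57.5 FPKM in young Ly-HSCs, with the old libraries below the young ones (-0.37 ± 0.22, adjusted p = 0.480). The difference between the age effects was 0.73 ± 0.31 (adjusted p = 0.864), or 0.51 without young My-HSC library 1. In the young cells all My-HSC libraries lay below all Ly-HSC libraries (-0.58 ± 0.22, adjusted p = 0.277). That difference was -0.36 without young My-HSC library 1. Of all genes tested, 0.651% had libraries that separated by age in opposite directions in the subsets, as Eif3k did, the 1 such gene of the 44.

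Eif3c, a core subunit gene and the second most abundant of the complex, averaged 215 ± 14.9 FPKM in old My-HSCs and 219 ± 17.9 in young My-HSCs, and 237 ± 43.8 FPKM in old Ly-HSCs and 259 ± 42.1 in young Ly-HSCs (SD, n = 3 each). The 95% intervals of its age differences were -0.38 to 0.34 in My-HSCs and -0.49 to 0.23 in Ly-HSCs. Eif3b, the RNA-binding core subunit gene, was at 75.8, 80.2 and 82.9 FPKM in old My-HSCs against 49.2, 72.3 and 75.1 FPKM in old Ly-HSCs, with no overlap (0.30 ± 0.28, adjusted p = 1.0), and over both ages the difference was 0.37 ± 0.20 (adjusted p = 0.516). It was 0.22 without young Ly-HSC library 3. Eif3i, the lowest eIF3 gene with a mean of 28.4 FPKM, was at 30.3, 27.8 and 36.4 FPKM in old My-HSCs, against 18.4, 25.3 and 22.8 FPKM in young My-HSCs, with all old libraries higher (0.49 ± 0.32, adjusted p = 0.868). Eif3f, Eif3g, Eif3l and Eif3m had means of 60.1, 90.9, 88.7 and 46.1 FPKM. The summed eIF3 level was 1028 ± 83.9 FPKM in old My-HSCs and 886 ± 114 in young My-HSCs, and 987 ± 121 FPKM in old Ly-HSCs and 959 ± 18.5 in young Ly-HSCs (SD, n = 3 each).

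The eIF4 factors find the cap and unwind the mRNA leader. Eif4b, the most abundant member, averaged 275 ± 37.9 FPKM in old My-HSCs and 224 ± 23.6 in young My-HSCs, and 264 ± 18.5 FPKM in old Ly-HSCs and 256 ± 60.8 in young Ly-HSCs (SD, n = 3 each). Its age differences were 0.29 ± 0.19 in My-HSCs (adjusted p = 0.856) and 0.07 ± 0.19 in Ly-HSCs (adjusted p = 0.896). Eif4g2, which encodes an eIF4G relative without the eIF4E-binding part, was the steadiest member, at 112, 131 and 133 FPKM in old My-HSCs, 127, 147 and 122 FPKM in young My-HSCs, 142, 128 and 143 FPKM in old Ly-HSCs and 142, 133 and 121 FPKM in young Ly-HSCs. Its 95% intervals with age were -0.39 to 0.24 in My-HSCs and -0.26 to 0.38 in Ly-HSCs.

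Eif4a3, a helicase of the exon junction complex that is named after its eIF4A relatives, was at 48.7, 33.1 and 46.6 FPKM in old My-HSCs, against 53.6, 49.7 and 48.9 FPKM in young My-HSCs, with all old libraries lower (-0.26 ± 0.23, adjusted p = 0.940). In Ly-HSCs it was at 59.5, 43.2 and 61.3 FPKM in old Ly-HSCs, against 89.2, 66.5 and 52.7 FPKM in young Ly-HSCs, where the groups overlapped (-0.32 ± 0.23). Over both ages the difference between My-HSCs and Ly-HSCs was -0.38 ± 0.17 (adjusted p = 0.404). Eif4a2, one of the eIF4A helicases, ranged from 122 to 225 FPKM, with the lowest value in young My-HSC library 1.

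Eif4e, the cap-binding protein gene, was at 18.2, 22.9 and 21.2 FPKM in old My-HSCs, against 19.0, 21.5 and 21.9 FPKM in young My-HSCs. It was at 17.1, 18.2 and 16.8 FPKM in old Ly-HSCs, against 6.54, 25.1 and 10.3 FPKM in young Ly-HSCs, where young libraries 1 and 3 were the lowest of the 12. No comparison of it passed, with age differences of -0.01 ± 0.38 in My-HSCs and 0.49 ± 0.38 in Ly-HSCs. In young My-HSCs against young Ly-HSCs the difference of Eif4e was 0.74 ± 0.38 (adjusted p = 0.410). It was 0.34 without young Ly-HSC library 1. Without young Ly-HSC library 2 that difference was 1.24 ± 0.29 (adjusted p = 0.0424, range 0.0424 to 0.900 over 24 alternatives). The difference of Eif3j1 between the young subsets also passed then (1.11 ± 0.23, adjusted p = 0.0321, range 0.0321 to 0.823), among 299 genes called (2.74%). The other cap-binding relatives Eif4e2 and Eif4e3 had means of 19.0 and 17.0 FPKM, and Eif4g3 and Eif4h of 52.1 and 38.7 FPKM.

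Of the proteins that bind and block eIF4E, Eif4ebp2 varied most. It was at 12.2, 20.4 and 22.6 FPKM in old My-HSCs, against 25.7, 28.6 and 32.8 FPKM in young My-HSCs, with all old libraries lower (-0.67 ± 0.68, adjusted p = 0.944). The difference was -0.41 without old My-HSC library 1. Eif4ebp2 was at 3.50, 23.8 and 27.1 FPKM in old Ly-HSCs, against 39.8, 5.82 and 19.4 FPKM in young Ly-HSCs, and the lowest values of the 12 fell in old library 1 and young library 2 (-0.29 ± 0.68, adjusted p = 0.888). The old libraries numbered 1, which hold 3.50 and 12.2 FPKM of Eif4ebp2, are those with the highest granulocyte marker sums. Young Ly-HSC library 2, at 5.82 FPKM of Eif4ebp2, had no such sum, as the young Ly-HSC sums reached at most 58.7 FPKM. A link to these markers was not tested. Without the 4 libraries numbered 1 the mean age difference was 0.34, and without old Ly-HSC library 1 alone -0.051, against -0.48 ± 0.48 with all libraries. Eif4ebp1, the first described member of the family, was at 53.2, 31.8 and 30.4 FPKM in young My-HSCs against 33.8, 12.0 and 21.3 FPKM in young Ly-HSCs (0.82 ± 0.37, adjusted p = 0.350). In the old cells it was at 46.4, 25.0 and 36.8 FPKM in My-HSCs against 38.1, 22.7 and 28.0 FPKM in Ly-HSCs. The groups overlapped at both ages, and the mean over ages was 0.54 ± 0.26 (adjusted p = 0.467). It was 0.36 without young Ly-HSC library 2. Eif4enif1, which carries eIF4E into the nucleus, was at 26.1, 25.8 and 23.9 FPKM in old My-HSCs, against 30.7, 35.0 and 26.6 FPKM in young My-HSCs, with all old libraries lower, the nearest pair less than 1 FPKM apart (-0.27 ± 0.26, adjusted p = 0.943). In Ly-HSCs its age difference was 0.08 ± 0.26.

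Among the factors that act after scanning, Eif5, the GTPase activator of eIF2, was steady. It averaged 158 ± 16.7 FPKM in old My-HSCs and 169 ± 12.2 in young My-HSCs, and 156 ± 10.9 FPKM in old Ly-HSCs and 156 ± 34.4 in young Ly-HSCs (SD, n = 3 each), with 95% intervals with age of -0.47 to 0.29 and -0.35 to 0.41 in My-HSCs and Ly-HSCs. Eif5b, which joins the subunits, was at 81.6, 65.1 and 79.0 FPKM in old Ly-HSCs, against 47.7, 70.5 and 47.9 FPKM in young Ly-HSCs. Young libraries 1 and 3 were the lowest of all 12 and young library 2 lay inside the old range (0.45 ± 0.19, adjusted p = 0.331). In My-HSCs its age difference was -0.02 ± 0.19. Eif5a, the hypusine-modified factor that helps ribosomes past stalls, ranged from 71.5 FPKM in young My-HSC library 1 to 156 FPKM in young Ly-HSC library 3, and its age differences were 0.34 ± 0.24 in My-HSCs and -0.06 ± 0.24 in Ly-HSCs. Its paralog Eif5a2 was at 0.916, 1.98 and 1.04 FPKM in old My-HSCs, against 0.659, 1.19 and 0.262 FPKM in young My-HSCs. It was at 1.89, 1.04 and 2.18 FPKM in old Ly-HSCs, against 0, 4.18 and 0.135 FPKM in young Ly-HSCs, with the lowest and the highest value of the 12 both in the young Ly-HSCs. Eif6, which keeps free large subunits from joining early, was at 8.25, 8.97 and 11.9 FPKM in old My-HSCs, against 8.82, 9.16 and 4.15 FPKM in young My-HSCs. In Ly-HSCs it was at 4.43, 6.67 and 12.6 FPKM in old Ly-HSCs, against 8.17, 13.3 and 13.1 FPKM in young Ly-HSCs, and the groups overlapped in both subsets.

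Elongation was covered by few genes. Eef1g, a scaffold of the complex that recharges elongation factor 1A, was at 199, 270.0 and 272 FPKM in old My-HSCs, against 224, 168 and 198 FPKM in young My-HSCs (0.32 ± 0.19, adjusted p = 0.820). The difference was 0.21 without young My-HSC library 2. In Ly-HSCs Eef1g was at 273, 234 and 222 FPKM in old Ly-HSCs, against 169, 191 and 247 FPKM in young Ly-HSCs (0.28 ± 0.19, adjusted p = 0.534). The groups overlapped in both, and the mean age difference was 0.30 ± 0.13 (adjusted p = 0.315). Eef1d, a nucleotide exchange subunit of that complex, was at 22.8, 23.5 and 25.3 FPKM in old Ly-HSCs, against 13.4, 22.8 and 21.0 FPKM in young Ly-HSCs, where each old library was higher and the nearest pair of libraries was almost level. Its age differences were 0.35 ± 0.27 in My-HSCs and 0.34 ± 0.27 in Ly-HSCs.

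Eef2k, the kinase that inhibits elongation factor 2, had the smallest adjusted p between subsets. It lies at chr7:120842831-120907450 on GRCm38. In old cells it was at 32.7, 37.0 and 35.7 FPKM in My-HSCs against 47.5, 53.8 and 61.0 FPKM in Ly-HSCs, with all My-HSC libraries lower (-0.60 ± 0.27, adjusted p = 1.0). In young cells it was at 25.3, 41.1 and 38.6 FPKM in My-HSCs against 35.8, 68.7 and 73.0 FPKM in Ly-HSCs, where young Ly-HSC library 1 lay inside the My-HSC range (-0.71 ± 0.27, adjusted p = 0.282). Over both ages the difference was -0.65 ± 0.19 (95% interval -1.07 to -0.24, adjusted p = 0.192). Without young Ly-HSC library 1 it was -0.81 ± 0.15 and passed (adjusted p = 0.0287, range 0.0287 to 0.382 over 23 alternatives), when 88 of all genes were called (0.807%). Its age differences were 0.03 ± 0.27 in My-HSCs and -0.07 ± 0.27 in Ly-HSCs.

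Eef2kmt, a methyltransferase of elongation factor 2, had the widest spread of all members. It was at 31.5, 29.9 and 21.7 FPKM in old Ly-HSCs, against 0.803, 10.1 and 24.9 FPKM in young Ly-HSCs, where young library 3 lay inside the old range (1.82 ± 0.73, adjusted p = 0.316). Leaving out young Ly-HSC library 1 gave a difference of 0.74, and leaving out young Ly-HSC library 3 gave 2.66. In My-HSCs the gene was at 19.9, 25.2 and 27.0 FPKM in old My-HSCs, against 63.3, 18.3 and 28.1 FPKM in young My-HSCs, with the highest value of all 12 in young library 1. The age effects differed by -2.23 ± 1.03 (adjusted p = 0.867). Without young Ly-HSC library 1 that difference was -1.15. The My-HSC difference of -0.41 ± 0.73 turned to 0.069 without young My-HSC library 1.

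Genes that work with these factors were counted from lists of 22 aminoacyl-tRNA synthetase genes and scaffolds, 15 termination and recycling genes, 9 genes of poly(A)-binding proteins and regulators of pyrimidine-tract mRNAs, 12 of the integrated stress response, 12 of mTORC1 and its kinases, 35 of ribosome biogenesis and 3 Myc genes. Of these, 22, 14, 8, 9, 10, 33 and 2 were tested, and none was called in any of the 7 comparisons. In old against young Ly-HSCs, where 13.3% of all genes had an unadjusted p under 0.05, 8 of 33 ribosome biogenesis genes did, 6 higher and 2 lower in old cells. Of all genes, 10.2% were higher and 334 of 10900 lower at that threshold. The list's median log2 fold change was 0.22, against 0.18 for all genes. In old against young My-HSCs 0 genes of this list were higher and 1 lower, against 5.06% and 2.16% of all genes. Its median there was -0.0040, beside 0.07 for all genes. The first of the 8 in Ly-HSCs was Ltv1, an assembly factor of the small subunit. Ltv1 was at 66.5, 52.6 and 54.1 FPKM in old Ly-HSCs, against 10.7, 30.2 and 44.1 FPKM in young Ly-HSCs (1.20 ± 0.40, adjusted p = 0.225). In the young cells Ltv1 was at 92.6, 65.8 and 59.1 FPKM in My-HSCs against 10.7, 30.2 and 44.1 FPKM in Ly-HSCs, with no overlap (1.51 ± 0.40, adjusted p = 0.127). Bop1, needed to process the RNA of the large subunit, was at 13.3, 19.8 and 20.5 FPKM in old My-HSCs against 66.6, 26.0 and 30.5 FPKM in old Ly-HSCs, with no overlap (-1.05 ± 0.45, adjusted p = 1.0). In young cells Bop1 was at 23.4, 25.0 and 18.4 FPKM in My-HSCs against 88.6, 24.0 and 28.9 FPKM in Ly-HSCs. There the groups overlapped. Over both ages its difference was -0.93 ± 0.32 (adjusted p = 0.255). The highest values of the 12 were in the Ly-HSC libraries numbered 1. In old against young My-HSCs the 22 synthetase genes had a median of 0.0033, the 10 mTORC1 genes of -0.30 and the 9 stress response genes of 0.17, beside 0.07 for all genes. At an unadjusted p under 0.05, 1 synthetase gene and 1 stress response gene were lower in old cells, against 2.16% of all genes, and no gene of these 3 lists was higher, against 5.06%. In old against young Ly-HSCs the medians of these 3 lists were 0.25, -0.013 and -0.016, in the same order, beside 0.18 for all genes.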

How the data were processed

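The authors deposited values that the labels name FPKM, a unit in which fragments are scaled by transcript length and library, for 14143 genes in 12 libraries (4 groups of 3). Named without their roles in the submitters' processing notes are STAR, bcl2fastq 2.17, GRCm38 (mm10) and DESeq2. Annotation, gene filter and treatment of multi-mapped reads: not given in the sources used here. Read totals are unknown, so no count test was run, and depth could not be recovered for every library. Values of log2(FPKM + 1) for 10900 genes at 1 FPKM or more in at least 3 libraries were fitted with limma 3.58.1 in R 4.3.3 (group means of all 12 libraries, intensity trend, 8 residual and 5.11 prior degrees of freedom, two-sided, Benjamini-Hochberg over all genes of each of 7 contrasts, called under an adjusted p of 0.05). The script was tested on simulated data. P-values measure the spread between libraries, and the limma fit treated all 12 libraries as independent. Same-numbered old My-HSC and old Ly-HSC libraries were taken to be paired, as described below. The p-values of comparisons that use both old groups do not take this pairing into account. Fits with a replicate block are given among the alternatives.

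The members and lists were chosen with earlier results of these data known. Members were picked for description by the 5 smallest p or the 2 most extreme estimates of a contrast. Extreme levels within a complex, a close paralog or a well-known role were other grounds. The remaining members were added for completeness. Not every estimate that led to a pick is given. Coordinates are from GENCODE M21 on GRCm38.

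Same-numbered old My-HSC and old Ly-HSC libraries deviated together from their group means (r = 0.26, 0.23 and 0.21 across genes), so the numbers were taken to pair those 6 libraries. No other pair of groups passed this check (r = -0.04 to 0.05). The alternatives tried were pseudocounts, filters, scalings, group weights, fits of the compared groups alone, the replicate block and leaving out libraries. The fits with the covariate for the share of genes at 0 and with the block in the old libraries alone were chosen after seeing the data. The erythroid marker list is not reported here.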

Additional observations from a re-analysis of the deposited data

Results flagged for a closer look

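Eif3k, an accessory eIF3 subunit gene, was the 1 member whose libraries separated by age in both subsets and in opposite directions, 1 of 44 members, as was the case for 0.651% of all genes tested. In My-HSCs all old libraries (41.5, 41.1 and 43.9 FPKM) lay above all young ones (23.9, 37.7 and 38.8 FPKM), with a log2 fold change of 0.36. In Ly-HSCs all old libraries (36.8, 33.9 and 43.9 FPKM) lay below all young ones (44.6, 47.2 and 57.5 FPKM), with a log2 fold change of -0.37. Neither difference passed (adjusted p = 0.854 and 0.480), and neither did the limma test of the difference between them (0.73 ± 0.31, adjusted p = 0.864). Without young My-HSC library 1 the latter was 0.51. Groups of 3 are too small for the test of single outlying libraries.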

How the results depend on the processing

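Over 25 alternative fits, the number of translation factor genes called stayed at 0 in 161 repeats and moved in 5, and the median over the members moved by less than the spread between replicates in 163 and by more in 3. That spread was 0.135, larger than each median with all libraries, so a median could change sign and still count as unmoved. Group weights, the replicate block and leaving out a library from outside a contrast could not move its median at all. With one weight per group, 1 member was called in old against young My-HSCs (Eif1a), among 71 of all genes (0.651%). Leaving out each library in turn, the members called ranged from 0 to 1 in old against young Ly-HSCs, from 0 to 2 in young My-HSCs against young Ly-HSCs, from 0 to 1 for the mean age difference and from 0 to 1 for the mean subset difference. These calls came without young Ly-HSC library 2 (Eif3j1, and Eif4e between the young subsets) and without young Ly-HSC library 1 (Eef2k). Under the same omissions the median log2 fold change over members in young My-HSCs against young Ly-HSCs ranged from -0.16 to 0.030. With the share of genes at 0 as a covariate, chosen after seeing the data, the members' median was -0.046 in old against young Ly-HSCs. The all-gene median there was -0.015, against 0.18 without the covariate. For the mean age difference the members' median was -0.021 and the all-gene median -0.046, against 0.13 for both without it. In each subset every young library had a higher share at 0 than every old one, so this covariate is confounded with age. The mean age difference of Eif4a3 in that fit was 0.098. Of the other named members, Eef2kmt in old against young My-HSCs ranged from -0.80 to 0.069 over single omissions and was 0.19 without the 4 libraries numbered 1. Eif4ebp2 in old My-HSCs against old Ly-HSCs ranged from -0.49 to 0.83 and was -0.23 without those 4, and its mean age difference was then 0.34. The cause of these changes was not tested.

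The replicate block in all 12 libraries gave 0 members called in each of the 7 comparisons. The fit without it also gave 0, with at most 0.844% of all genes called. These counts therefore cannot show whether the pairing bears on the members. The block in the 6 old libraries alone, which compares old My-HSCs with old Ly-HSCs, also called 0, and there Eef2k had an adjusted p of 0.240 and Eif1a of 0.317. Under quantile normalization the all-gene median in old against young Ly-HSCs was 0.027, against 0.18 as deposited, and the members' median was 0.11, against 0.10. A fit with relative depth as a covariate was not run, because low values gave no clear depth for every library. Depth is unknown, so low members such as Eif5a2 carry an error that cannot be stated.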
